A study of Mus musculus with 6 samples.

Results

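The genes described here are 9 mouse genes that switch off the photoreceptor light response and reset it through calcium: Guca1a, Guca1b, Gucy2e, Gucy2f, Rcvrn, Grk1, Rgs9, Gnb5 and Slc24a1. They were chosen by symbol from the platform annotation. The rule used none of their values, but the choice was made with earlier results of these data known. Of the 9 genes, 8 had at least 1 probe set, and these 8 had 10 of the 22690 probe sets in the table. Guca1b and Rgs9 had 2 probe sets each, and Gucy2f had none in the annotation used here. The samples were total RNA of whole retinae taken at day 7 after birth, each on its own Affymetrix array: 3 of C57BL/6 wildtype mice, and 3 of hemizygous knockout mice (-/Y) that the labels also give as C57BL/6. The label of wildtype array 1 leaves out the age in its strain field, but its title gives it. The labels do not say how the knockout allele was made, or how many animals each sample came from. The p-values therefore rest on variation among 6 arrays that could in part be technical.

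A photoreceptor in the dark holds its channels open with cyclic GMP, and calcium enters through them. Light lowers cyclic GMP, the channels close, and the sodium, calcium and potassium exchanger of rods (Slc24a1) goes on removing calcium, so calcium falls. The fall releases the guanylate cyclase activating proteins (Guca1a and Guca1b) to stimulate the membrane guanylate cyclases (Gucy2e and Gucy2f), which restore cyclic GMP, and it releases recoverin (Rcvrn) from the visual pigment kinase (Grk1), which quenches the pigment. The complex of Rgs9 with the G protein beta subunit Gnb5 speeds the shut-off of transducin. In the mouse, outer segments are still forming at the end of the first postnatal week.

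None of the calcium feedback and recovery genes passed the test between knockout and wildtype retinae. Of their 10 probe sets, 6 passed the filter on low values (a mean scaled signal above 62.4) and were tested. Of these 6, 0 passed limma's test at 0.05 after Benjamini-Hochberg adjustment, against 0.0147% of the 13575 probe sets tested. At an unadjusted p under 0.05 the count was also 0 of 6, against 3.82% of all. That count was 1 of the tested members in 4 of the other settings: Guca1b on values without rescaling, without wildtype array 2, and without both wildtype array 2 and knockout array 1, and Rcvrn without wildtype array 1. None of these had an adjusted p under 0.05. The share of all probe sets at an unadjusted p under 0.05 in those settings is not given here, and the 3.82% is from the main fit. In 0 of the 6 did all knockout arrays lie on 1 side of all wildtype arrays, against 9.1% of all probe sets tested. Log2 fold changes (knockout minus wildtype, of scaled signal plus a pseudocount of 19.1) were positive for Guca1b and Rcvrn and negative for the other 4 genes, where 49.9% of all tested probe sets were negative. Their median was -0.03, and that of all tested probe sets was 0.00031. Below the filter lay the only Gucy2e and Grk1 probe sets and the second ones of Guca1b and Rgs9. There, the knockout signals of Gucy2e and of the second Rgs9 probe set lay below all wildtype signals. Over the 9051 probe sets below the filter, 5.37% did so in this direction, and the share in either direction is not given here.

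**Figure D1:**
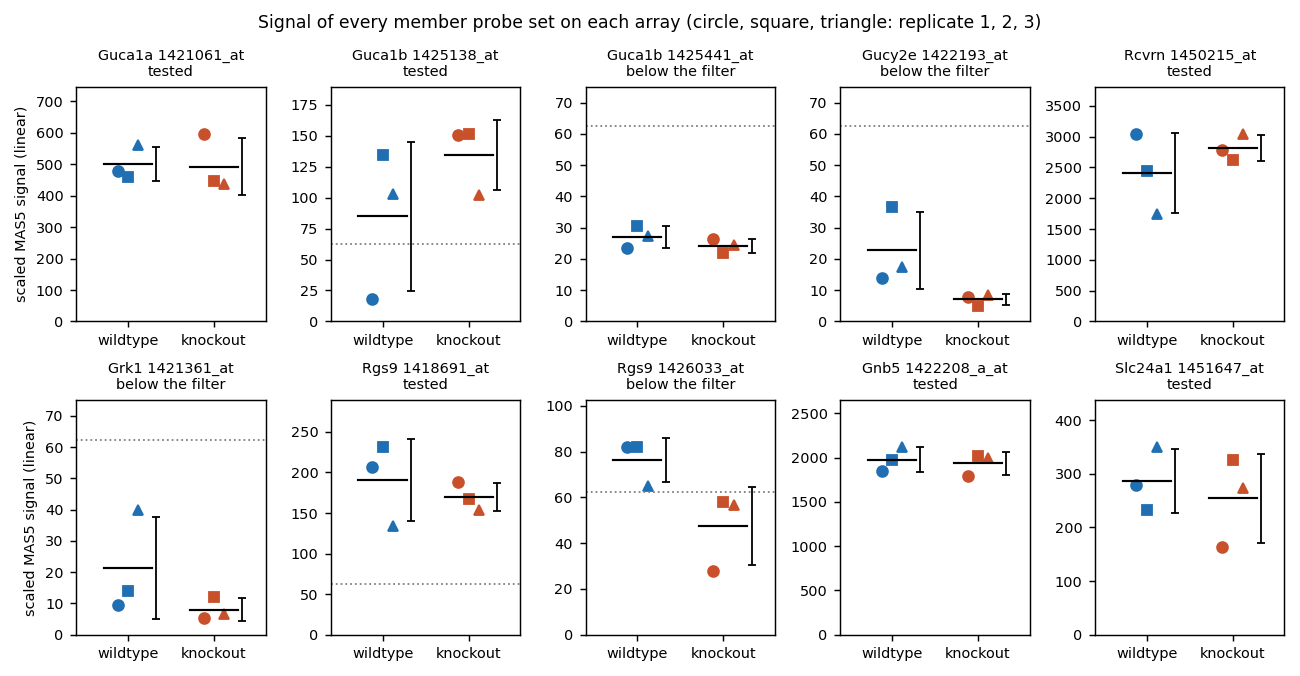
Scaled MAS5 signal (linear axis from 0) of each of the 10 probe sets on the 3 wildtype (blue) and 3 knockout (red) arrays; horizontal bars are means, error bars are SD over 3 arrays, and the dotted line, drawn in the panels of dimmer probe sets, is the filter at 62.4. Wildtype array 1 lies apart for Guca1b (18.1), and the knockout points lie below the wildtype points for Gucy2e and for the second Rgs9 probe set. Of the 9051 probe sets below the filter, 5.37% lie apart in this direction.

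Facts of the arrays touch every value below. The trimmed mean of the deposited signals ran from 171 to 312 over the 6 arrays, and each array was rescaled to the same trimmed mean. Knockout array 1 correlated with the other arrays at 0.914 to 0.936, whereas the highest correlation of each other array was 0.972 to 0.979. Of the array controls, the 3' to 5' signal ratio of Actb was 1.44 to 1.64 on the wildtype and 1.69 to 2.17 on the knockout arrays, without overlap, whereas that of Gapdh was 0.824 to 0.982 and 0.884 to 1.18, with overlap. The scaled signal of the 18S ribosomal RNA controls (mean of their probe sets) was 983 on wildtype array 2 and 273 on knockout array 1, against 56.1 to 63.6 on the other 4. Lens markers differed widely within both groups, with 15 of 18 genes on the array and a summed scaled signal of 423 to 2557 in wildtype and 609 to 1503 in knockout retinae. Pigment epithelium markers (7 of 8 genes) had summed signals of 1166 to 3060 and 2171 to 3361. Skeletal muscle markers (7 of 7 genes) summed to 473 to 580 in wildtype and 332 to 405 in knockout retinae, without overlap. The summed signal of ganglion cell markers (6 of 8 genes) ran the other way, also without overlap, at 4369 to 4866 in wildtype and 5061 to 5389 in knockout retinae. Nefl was the brightest of them, and the 6 genes did not move together: 3 log2 fold changes were positive and 3 negative. Their mean centred log2 signals overlapped, at -0.12 to 0.04 in wildtype and -0.04 to 0.14 in knockout retinae. The sums of the cone, bipolar, amacrine, Mueller glia and blood lists overlapped between the groups. The part of these differences in the results was not tested.

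The retinal label was checked against rod and photoreceptor precursor markers. Of 9 rod markers 7 were on the array and all 7 passed the filter, with a summed scaled signal of 26038 to 28322 in wildtype and 22439 to 25426 in knockout retinae, so that the sums did not overlap. The sum was lowest on knockout array 1, and it is made up mostly of Sag, Nrl, Pde6b and Pde6g. With each gene centred on its own mean, the list means did overlap: -0.003, 0.11 and 0.09 on the wildtype and -0.31, 0.07 and 0.03 on the knockout arrays. Log2 fold changes were negative for 6 of the 7 and positive for Pde6b (0.02). Only 2 of the 7, Sag and Rom1, had groups without overlap. All 5 precursor markers (Crx, Otx2, Prdm1, Neurod1 and Aipl1) passed the filter, with sums of 13382 to 15436 and 13010 to 14602 that overlapped. In whole retina, fewer cells of a type and less RNA per cell cannot be told apart.

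The cyclase activators come first. Guca1a encodes the activator known as GCAP1, a calcium sensor with EF-hands found in rods and cones. Its scaled signal was 479, 459 and 561 on wildtype arrays 1 to 3 and 597, 446 and 436 on knockout arrays 1 to 3. The highest value was on knockout array 1 and the other knockout arrays were the lowest, so the groups overlapped. Wildtype retinae averaged 499.6 ± 54.4 (SD, n = 3) and knockout retinae 493 ± 90.2, a log2 fold change of -0.03 ± 0.18 (SE; limma adjusted p = 0.999). The 95% interval of that change ran from -0.42 to 0.37, that is, from 0.746-fold to 1.29-fold. Without knockout array 1 both remaining knockout arrays lay below all wildtype arrays, with a log2 fold change of -0.17.

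Guca1b encodes GCAP2, the second cyclase activator. Its first probe set had 18.1, 134 and 103 on the wildtype arrays and 150, 152 and 102 on the knockout arrays. Wildtype array 1 was far below the other 5 arrays, and among those 5 the groups overlapped. The means were 85.0 ± 59.98 (SD, n = 3) and 135 ± 28.3, a log2 fold change of 0.78 ± 0.46 (SE; limma adjusted p = 0.999; 95% interval -0.25 to 1.81). This was the largest change among the 6 tested probe sets, and 1.54% of all tested probe sets had one at least as large, but its spread between replicates was also the largest (0.80 on the log2 scale, against a median of 0.23 over all tested probe sets). Without wildtype array 1 the log2 fold change was 0.15, and without wildtype array 2 it was 1.18 (limma, unadjusted p = 0.029, adjusted p = 0.9997). Without knockout array 3 it was 0.94, and both remaining knockout arrays then lay above all wildtype arrays.

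The second Guca1b probe set, below the filter, did not show this pattern. It had 23.5, 30.5 and 27.4 on the wildtype and 26.3, 21.7 and 24.5 on the knockout arrays. The groups overlapped, and wildtype array 1 lay inside the range of the others. The difference in mean log2 values was -0.09, opposite in sign to the first probe set, and the correlation between both probe sets over the 6 arrays was 0.28.

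Of the cyclases, Gucy2e encodes GC1, the main membrane guanylate cyclase of cones and one of those of rods. Its probe set had 14.1, 36.7 and 17.4 on the wildtype arrays and 7.68, 5.02 and 8.37 on the knockout arrays. All knockout values were below all wildtype values, yet its mean over the 6 arrays was 14.9, under the pseudocount of 19.1 and under the filter, so it was not tested. Fitted without a filter, over all 22626 probe sets that are not controls, its log2 fold change was -0.64 ± 0.20 (SE; unadjusted p = 0.013; limma adjusted p = 0.999). Of the 4 probe sets of these genes below the filter, 2 had all knockout arrays lower (Gucy2e and the second of Rgs9), where 5.37% of the 9051 probe sets below the filter did. That share counts only the lower direction, in which these 2 lay, whereas the 9.1% of tested probe sets without overlap counts either direction. The share in either direction below the filter is not given here. No detection call came with the values, and whether signals of this size stand above background was not tested. The size of the change depended on the pseudocount, at -1.13 with 5 and -0.34 with 50, while the order of the groups held in each of the 12 other settings run for it, among them each array left out in turn.

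Upstream sequence was set beside these members because the transcription factor Crx, which drives many photoreceptor genes, is known to bind the core TAATCC. Of the 9 genes, 7 matched in the RefSeq promoter table (GRCm38.p6), and 250 bases before the annotated start were searched for TAATCC or its reverse complement GGATTA. Of the 7 windows, 4 held it (Guca1a, Gucy2e, Gucy2f and Gnb5), where 6.25% of 32851 windows of this length did. The shorter core TAATC or GATTA, which every longer match contains, was in 5 of 7 windows (those 4 and Rgs9) and in 19.8% of all. The windows of Grk1 and Slc24a1 held neither. A match is a description of letters, not of binding. Guca1a, which was tested, and Gucy2e, which was below the filter, are printed as members with a match. Gucy2f, which has no probe set here, is printed because its window held 2 matches. The window of Guca1a is chr17:47400607-47400856 (minus strand), that of Gucy2e chr11:69237023-69237272 (minus strand) and that of Gucy2f chrX:142196937-142197186 (minus strand). Each runs 5′ to 3′ on the gene's strand and ends at the last base before the start. Capitals mark TAATCC or GGATTA in each.
Guca1a: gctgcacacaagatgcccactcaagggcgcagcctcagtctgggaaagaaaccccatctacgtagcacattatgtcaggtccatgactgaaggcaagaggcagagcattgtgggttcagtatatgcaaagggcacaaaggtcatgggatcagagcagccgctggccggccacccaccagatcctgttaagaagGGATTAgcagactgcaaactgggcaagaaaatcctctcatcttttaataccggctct
Gucy2e: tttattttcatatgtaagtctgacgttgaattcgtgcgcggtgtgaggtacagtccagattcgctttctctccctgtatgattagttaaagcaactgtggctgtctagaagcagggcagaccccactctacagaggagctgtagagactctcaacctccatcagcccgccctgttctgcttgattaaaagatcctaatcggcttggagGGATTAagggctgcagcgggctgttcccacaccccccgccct
Gucy2f: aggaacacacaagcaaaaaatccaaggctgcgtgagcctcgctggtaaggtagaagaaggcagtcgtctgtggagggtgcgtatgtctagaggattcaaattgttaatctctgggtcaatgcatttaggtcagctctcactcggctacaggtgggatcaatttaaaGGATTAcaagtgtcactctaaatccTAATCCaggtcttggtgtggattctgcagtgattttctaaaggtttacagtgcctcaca

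The match began 57 bases before the start in Guca1a and 42 in Gucy2e. In Gucy2f the matches began 84 and 59 bases before it, and in Gnb5 6 bases before it. Gucy2e also held 3 shorter cores outside its longer match, which are in lower case, beginning 171, 69 and 56 bases before the start.

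Recoverin, encoded by Rcvrn, is the calcium sensor that holds back the visual pigment kinase while calcium is high. Its scaled signal was 3036, 2444 and 1739 on the wildtype arrays and 2784, 2625 and 3046 on the knockout arrays. The lowest array was wildtype 3, and wildtype 1 lay among the knockout arrays, so the groups overlapped. Wildtype retinae averaged 2407 ± 649 (SD, n = 3) and knockout retinae 2818 ± 212, a log2 fold change of 0.26 ± 0.19 (SE; limma adjusted p = 0.999). The 95% interval ran from -0.16 to 0.68. The value leaned on wildtype array 3, without which it was 0.05. Without wildtype array 1 it was 0.44, and both remaining wildtype arrays then lay below all knockout arrays (unadjusted p = 0.034, limma adjusted p = 0.999).

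The kinase itself, encoded by Grk1, phosphorylates the light-activated visual pigment as the first step of its quenching. Its probe set had 9.64, 14.1 and 39.9 on the wildtype arrays and 5.42, 12.1 and 6.67 on the knockout arrays. Wildtype array 3 stood far above the other 5 arrays, and the groups overlapped, since knockout array 2 exceeded wildtype array 1. Its mean over the arrays was 14.6, below the filter, and the difference in mean log2 values was -0.50. Without wildtype array 3 that difference was -0.19.

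Rgs9 encodes the GTPase activating protein that speeds transducin's return to the inactive state. The tested Rgs9 probe set had 207, 231 and 134 on the wildtype arrays and 188, 168 and 153 on the knockout arrays. Wildtype array 3 was the lowest of all, and the knockout arrays lay between it and the other wildtype arrays. The means were 191 ± 50.5 (SD, n = 3) and 170 ± 17.6, a log2 fold change of -0.13 ± 0.21 (SE; limma adjusted p = 0.999; 95% interval -0.61 to 0.35). Without wildtype array 3 it was -0.34, and both remaining wildtype arrays then lay above all knockout arrays. Without wildtype array 2 it was 0.01, and the groups overlapped.

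The second Rgs9 probe set fell just under the filter, with a mean over the arrays of 61.8 against 62.4. It had 81.8, 82.0 and 65.1 on the wildtype and 27.7, 57.9 and 56.6 on the knockout arrays. All knockout values lay below all wildtype values, with knockout array 1 far below the rest. Fitted without a filter, its log2 fold change was -0.55 ± 0.25 (SE; unadjusted p = 0.061; limma adjusted p = 0.999), and without knockout array 1 it was -0.32 with the groups still apart. On the deposited values before rescaling the groups overlapped. Both probe sets had a negative fold change, but they correlated at only 0.23 over the 6 arrays. Which Rgs9 transcripts each probe set reads is not given in the sources used here.

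Gnb5 encodes the beta subunit that binds Rgs9 and related RGS proteins, and it is also used by bipolar cells and other neurons. Its scaled signal was 1849, 1970 and 2119 on the wildtype arrays and 1789, 2022 and 1995 on the knockout arrays. The 6 values were within 1.19-fold of each other, and the groups overlapped throughout. The means were 1979 ± 136 (SD, n = 3) and 1935 ± 128, a log2 fold change of -0.03 ± 0.12 (SE; limma adjusted p = 0.999). Its 95% interval was the narrowest of the tested members, from -0.30 to 0.24, or 0.811-fold to 1.18-fold. Its identifier ends in _a_at, a class of probe set that reads more than 1 transcript of a gene.

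Slc24a1 encodes the rod exchanger that removes calcium. Its scaled signal was 278, 232 and 350 on the wildtype arrays and 164, 325 and 274 on the knockout arrays. Knockout array 1 was the lowest and the other knockout arrays lay within the wildtype range. The means were 287 ± 59.1 (SD, n = 3) and 254 ± 82.6, a log2 fold change of -0.19 ± 0.25 (SE; limma adjusted p = 0.999; 95% interval -0.76 to 0.38). Without knockout array 1, on which the rod marker sum was also lowest, it was 0.07.

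**Figure D2:**
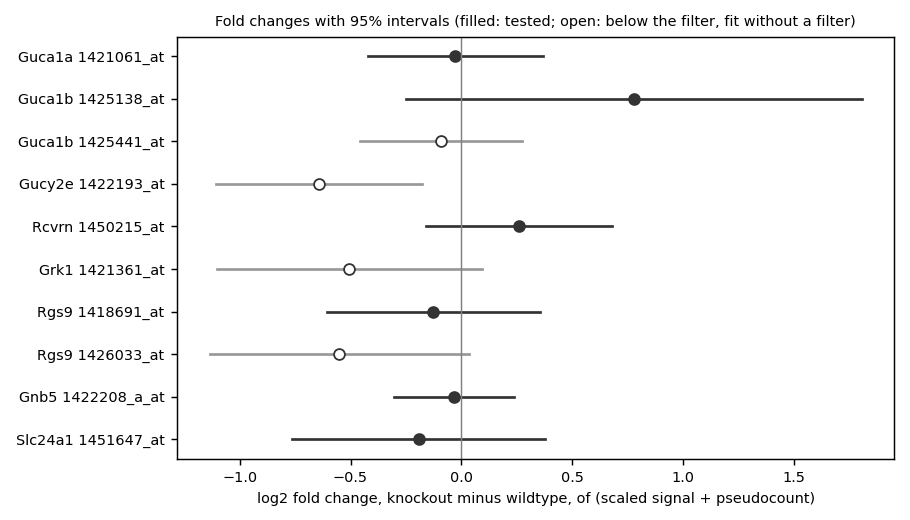
Log2 fold change (knockout minus wildtype, of scaled signal plus pseudocount; horizontal axis) of each of the 10 probe sets with its 95% interval from limma; filled points were tested, and open points lie below the filter and are from the fit without one. All 6 filled points have intervals that include 0, the narrowest for Gnb5 (-0.30 to 0.24) and the widest for Guca1b (-0.25 to 1.81).

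The tested members did not vary as a block over the arrays. Of the 15 pairs among the 6 tested probe sets, 4 had a positive and 11 a negative correlation over the 6 arrays, which share their scaling and their mixture of cells. The highest was 0.82, between Gnb5 and Slc24a1, and the lowest -0.68, between Rcvrn and Gnb5. The mean of the 6 genes, each centred on its own mean over the arrays, was -0.21, 0.07 and -0.03 on wildtype arrays 1 to 3 and 0.04, 0.12 and 0.00 on knockout arrays 1 to 3. That profile was mostly that of Guca1b, with which it correlated at 0.96, whereas the other 5 members correlated with it at -0.18 to 0.29.

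**Figure D3:**
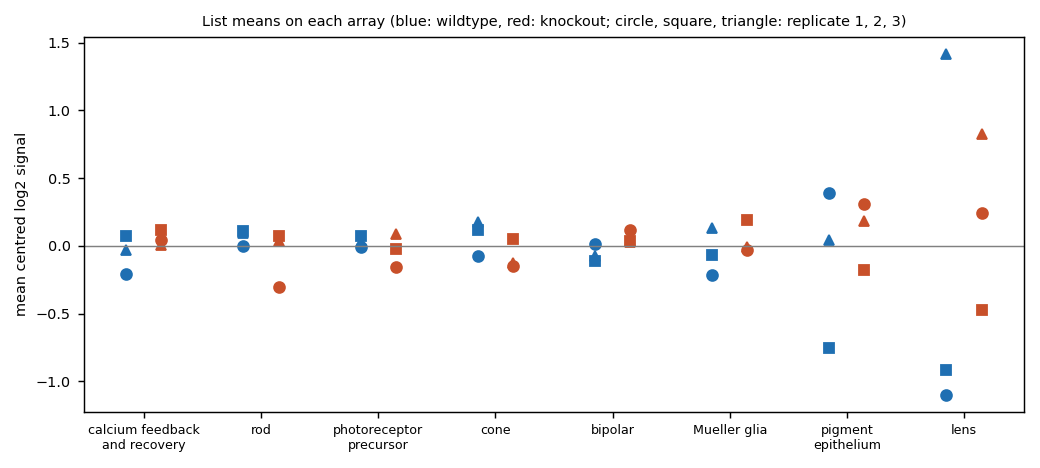
Mean centred log2 signal (vertical axis) of the tested genes of each list drawn, on the 3 wildtype (blue) and 3 knockout (red) arrays, with 1 marker shape per replicate number. The lists drawn are the members, rod, photoreceptor precursor, cone, bipolar, Mueller glia, pigment epithelium and lens. The amacrine, ganglion, skeletal muscle and blood lists are not drawn. The calcium feedback and recovery genes stay between -0.21 and 0.12, while the lens list runs from -1.10 to 1.42 and the rod list is lowest on knockout array 1 (-0.31).

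Of 12534 tested probe sets with 1 gene symbol outside the members, those whose values followed this mean profile most closely were of Plaat3 (r = 0.99 over 6 arrays), Tmem242 (0.98), Esyt1 (0.98), Slc38a1 (0.97) and Zfp131 (0.97). These correlations describe the 6 arrays only. All 5 were lowest on wildtype array 1, as Guca1b was. Tmem242, for example, had 50.9 there, against 125 to 207 on the other arrays.

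The other genes of the phototransduction cascade gave the context of the members. Of 34 listed genes, 25 had a probe set with a single symbol, and all 25 passed the filter. In limma 0 of 25 had an adjusted p under 0.05, 8 had positive and 17 negative log2 fold changes, and the median was -0.07. At an unadjusted p under 0.05 there was 1 gene of 25, against 3.82% of all tested probe sets. It was the cone opsin Opn1mw (-0.85 ± 0.36, SE; limma adjusted p = 0.999). Opn1mw had 78.0, 81.7 and 127 on the wildtype and 16.9, 85.4 and 45.3 on the knockout arrays, which overlapped. Its knockout mean (49.2) was under the filter of 62.4, so it was tested only because of its wildtype mean (95.4). The groups did not overlap for 1 of 25, against 9.1% of all tested probe sets. This was Sag, which encodes the arrestin that caps phosphorylated pigment in rods. Sag had 7344, 7886 and 7644 on the wildtype and 6190, 7052 and 6910 on the knockout arrays, a log2 fold change of -0.18 ± 0.09 (SE; limma adjusted p = 0.999).

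Further genes that bear on recovery overlapped between the groups. Rd3, needed to carry the membrane cyclases to the outer segment, had 1222, 1381 and 1030 on the wildtype and 1198, 1249 and 1368 on the knockout arrays, a log2 fold change of 0.08 ± 0.15 (SE). Rgs9bp, the membrane anchor of Rgs9, and the cone exchanger gene Slc24a2 were not in the probe annotation used here and are named only. Phosducin (Pdc), which binds transducin beta and gamma subunits, had a log2 fold change of -0.18. The cyclic GMP phosphodiesterase subunit Pde6a had -0.46, the rod transducin gamma subunit Gngt1 -0.34 and the phosphodiesterase chaperone Aipl1 -0.26. None of these passed the test.

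Relatives from the same protein families as the members also did not pass. Of 37 listed relatives, 28 had a probe set with a single symbol and 21 passed the filter, and 0 of 21 had a limma adjusted p under 0.05. Positive log2 fold changes were found for 8 and negative ones for 13, with a median of -0.09. Grk6, a widely expressed G protein coupled receptor kinase, had 211, 204 and 190 on the wildtype and 230, 277 and 308 on the knockout arrays, which did not overlap (log2 fold change 0.39 ± 0.17, SE; unadjusted p = 0.045; limma adjusted p = 0.999). Gnb4, another G protein beta subunit, was the only other of the 21 tested relatives without overlap, with a log2 fold change of -0.22. It falls outside the rule for naming and is given because the count is small. Over all tested probe sets, 9.1% were without overlap and 3.82% had an unadjusted p under 0.05 in limma, as Grk6 alone did among the 21. The calcium sensor Kcnip1 had -0.43, the natriuretic peptide receptor cyclase Npr2 0.33 and the soluble cyclase subunit Gucy1a1 -0.42. The brightest relatives, Gnb1, Gnb2, Gnb3 and Slc24a3, had log2 fold changes of -0.09, 0.09, -0.11 and 0.09. Gnb1 and Gnb3 were also counted among the cascade genes, so the lists of cascade genes and relatives are not separate.

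**Figure D4:**
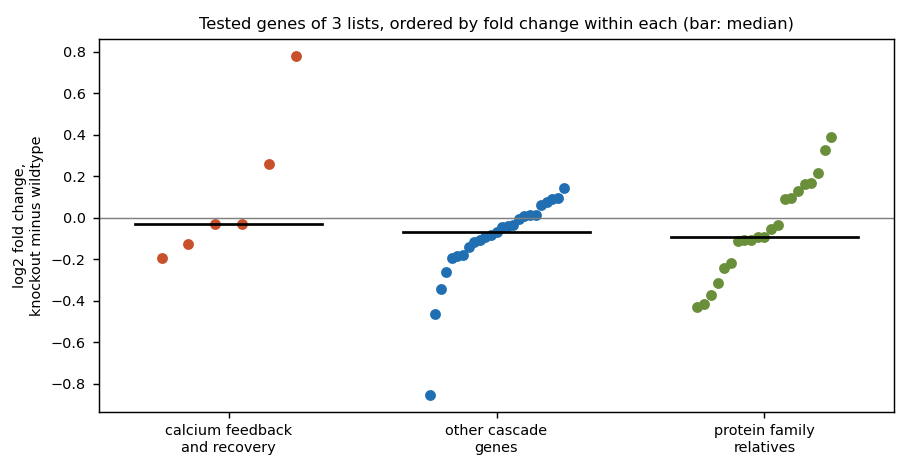
Log2 fold change (knockout minus wildtype; vertical axis) of the tested genes of 3 lists, 1 point per gene in order of its value, with bars at the list medians. The medians are -0.03 for the 6 calcium feedback and recovery genes, -0.07 for the 25 other cascade genes and -0.09 for the 21 family relatives, and 0 of these points passed the test. Gnb1 and Gnb3 are in both the cascade and the relatives list.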

How the data were processed

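The authors deposited 1 linear intensity per probe set and array; the submitters' processing notes name MAS5 as its source. Its version, scaling target and detection calls are not given in the sources used here. Groups came from the titles. The 64 controls were left out, and each array was scaled to a common trimmed mean (2% left off either end). Before log2, a pseudocount (19.1, the 20th percentile) was added, which understates fold changes of dim probe sets. Probe sets with a mean above the 40th percentile (62.4) were tested in limma 3.58.1 (R 4.3.3: lmFit, eBayes with an intensity trend, Benjamini-Hochberg over all 13575). The fit was tested on simulated data with independent noise of the same size for every probe set. Those data lacked the array differences described above, so they cannot show how the fit performs on these arrays. Symbols came from the platform annotation, updated by Entrez identifier (20351 matched); 20380 probe sets had 1 symbol, 691 several and 1555 none, and only single-symbol ones were named. A gene in a list was represented by its brightest probe set. All member probe sets were named, with, by the size of the moderated statistic, up to 6 cascade genes and 4 relatives, the 4 brightest relatives, and Sag, Rgs9bp, Rd3 and Slc24a2. Members and lists were chosen with earlier results of these data known. Alternatives covered scaling, pseudocount, filter, variance model, replicate block and left-out arrays. The targeted gene is not reported here. The number of arrays limits the precision.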

Additional observations from a re-analysis of the deposited data

How the results depend on the processing

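In each of the 18 settings run, 0 member probe sets passed, and the lowest limma adjusted p of a member was 0.44 (Guca1b without rescaling, log2 fold change 1.02). At an unadjusted p under 0.05, the count of members (0) was 1 in each of 4 settings. For Guca1b, limma gave an unadjusted p = 0.00095 (adjusted p = 0.44) on values without rescaling. Without wildtype array 2 it gave Guca1b an unadjusted p = 0.029 (limma adjusted p = 0.9997), and with wildtype array 2 and knockout array 1 both left out 0.046 (limma adjusted p = 0.9999). Without wildtype array 1 it gave Rcvrn an unadjusted p = 0.034 (limma adjusted p = 0.999). Over all probe sets, 2 passed; this became 0 under the ordinary statistic, 1 when no filter was applied, 10 on unscaled values, and 4 with both wildtype array 2 and knockout array 1 left out. Leaving out 1 array gave 0 to 4: dropping wildtype array 3 gave 0, wildtype array 2 gave 4, and knockout array 2 or 3 gave 1. The count of members without overlap (0) was 1 without rescaling (Rcvrn), 2 without a filter (Gucy2e and the second Rgs9 probe set, where more probe sets were included), 1 with that pair of arrays left out (Guca1a) and 0 to 1 with 1 array left out. Beside these member counts at an unadjusted p or without overlap, no share of all probe sets in the same setting is given here. The members' median (-0.03) was 0.28 without rescaling, where that of all tested probe sets was 0.29.

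Of 107 member values under the planned settings, 16 turned sign. Without rescaling, Guca1a (0.28), Rgs9 (0.16), Gnb5 (0.28) and Slc24a1 (0.095) became positive, each at or below that shift. With median scaling Guca1a was 0.063 and Gnb5 0.061. With array weights Gnb5 was 0.029 and Slc24a1 0.046, and with the pair of arrays left out Gnb5 was 0.021. With 1 array left out, values ran from -0.17 to 0.056 for Guca1a, -0.34 to 0.015 for Rgs9, -0.080 to 0.023 for Gnb5 and -0.38 to 0.073 for Slc24a1. Unless stated, the cause was not tested. Settings for the 4 probe sets below the filter were chosen after seeing the data: 3 of 48 values moved by more than the replicate spread, for Guca1b without rescaling (0.08) and for Gucy2e with either pseudocount.

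A replicate block on the array numbers left 2 probe sets past the threshold, 0 of them members, with Guca1b at 0.78. Between arrays of 1 number, the correlations of deviations from the group means were 0.18, -0.03 and 0.08. Between arrays of different numbers they ran from -0.29 to 0.26. Deviations from means of 3 arrays are tied to each other, so these values cannot decide whether arrays of 1 number were handled together. With the block no call of a member changed.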
